A study of Homo sapiens with 6 samples.

Results

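The 10 genes described here encode S100 proteins, a family of small calcium sensors, and were taken from the gene table by symbol: S100A2, S100A4, S100A6, S100A8, S100A9, S100A10, S100A11, S100A14, S100A16 and S100P. They are 10 of the 19973 genes listed, and all 10 were found. RNA-seq had been performed on OVCAR3 cells, a line established from human ovarian carcinoma, which carried either a non-targeting short hairpin RNA (shNC) or a hairpin against NUF2 (shNUF2). The shNUF2 plasmid was phU6-shRNA-CMV-puromycin, in which the U6 promoter drives the hairpin, and both groups, the shNC cells included, were transfected and then selected with puromycin as stable lines. There were 3 libraries in each group, and no time point or dose was given. The labels do not say whether the libraries of a group came from separate cultures, so that p-values measure only the spread between these libraries, which may be technical.

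The S100 proteins fold around a pair of calcium-binding EF-hand loops and mostly work as dimers. Calcium opens a surface on the dimer that binds target proteins, among them annexins, non-muscle myosin and the membrane linker ezrin. Several members are also released from cells and bind receptors such as AGER (RAGE) and TLR4. In humans most of the family lies in a cluster on chromosome 1q21, beside the genes of the skin barrier, and several members are much studied in carcinoma.

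The library totals lay between 14115009 and 16995452 counts with shNC and between 13057534 and 15227460 with shNUF2. NUF2, the target of the hairpin and a subunit of the kinetochore complex that holds microtubules, had 903, 1096 and 1092 counts with shNC and 281, 290 and 384 with shNUF2. It was lower in all 3 shNUF2 libraries, from 65.2 ± 2.94 to 22.9 ± 2.40 counts per 1000000 counts of the scaled library (CPM, SD, n = 3), with a log2 fold change of -1.51 (SE 0.08). Of 11 genes fixed as a list for ovarian carcinoma epithelium, 8 were abundant enough to test, and their summed level was 1146 to 1271 CPM with shNC and 1500 to 1612 CPM with shNUF2. KRT7, KRT8, KRT18, CLDN4, MUC16 and PAX8 were present. WT1 had at most 7 counts and KRT19 at most 8 counts in any library, CLDN3 had 0 in all of them, and EPCAM and CDH1 averaged 3.39 and 1.38 CPM with shNC. The low levels of these 5 epithelial genes go against the OVCAR3 label, and the cells are called OVCAR3 here by that label alone.

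Most of the S100 genes rose after NUF2 knockdown, and none was called lower. S100A9, S100A2 and S100A10 passed a log2 fold change of 1 with an unadjusted p under 0.05. The study's methods name a fold change limit of 1 without its scale, and it was read here on the log2 scale. This is 3 of the 9 members tested, or 33.3%, where 9.41% of all 12874 genes tested were higher by the same rule and 4.16% were lower. By an adjusted p under 0.05 with no limit on size, 7 of 9 members were higher and 0 lower, against 33.9% and 33.8% of all genes. S100A9 met the filter on low counts only through its shNUF2 libraries. Of the 8 members that met it in both groups, 2 were higher by the first rule and 6 by adjusted p. S100A4 and S100A6, which are among the most abundant members, passed neither rule. The median log2 fold change was 0.43 over the 9 members and -0.01 over all genes tested. S100A8 had too few counts to be tested. In bulk RNA, more cells that express a gene and more RNA in each cell cannot be told apart.

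The stretch of 250 bases before the annotated start of transcription is shown for the 4 members with the highest ratio between the groups and for the 2 that passed no test, since these are the genes on which the comparison turns. The sequences are from RefSeq and are written on the strand of the gene, 5′ to 3′. Capitals mark the TATA box letters TATAAA, the AP-1 site letters TGANTCA and the GC box letters GGGCGG, each searched on both strands.
S100A9 (GRCh38.p14, chr1:153357604-153357853, plus strand): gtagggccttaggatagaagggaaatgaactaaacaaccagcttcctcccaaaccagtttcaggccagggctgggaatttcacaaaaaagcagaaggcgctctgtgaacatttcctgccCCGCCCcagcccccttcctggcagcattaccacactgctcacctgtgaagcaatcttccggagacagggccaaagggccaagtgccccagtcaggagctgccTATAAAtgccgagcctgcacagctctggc
S100A8 (GRCh38.p14, chr1:153391074-153391323, minus strand): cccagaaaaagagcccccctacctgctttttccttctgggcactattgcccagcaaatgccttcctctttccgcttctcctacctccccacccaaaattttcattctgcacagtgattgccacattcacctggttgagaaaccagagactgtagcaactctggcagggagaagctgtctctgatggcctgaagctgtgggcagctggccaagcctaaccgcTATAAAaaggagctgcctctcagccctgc
S100A2 (GRCh38.p14, chr1:153565845-153566094, minus strand): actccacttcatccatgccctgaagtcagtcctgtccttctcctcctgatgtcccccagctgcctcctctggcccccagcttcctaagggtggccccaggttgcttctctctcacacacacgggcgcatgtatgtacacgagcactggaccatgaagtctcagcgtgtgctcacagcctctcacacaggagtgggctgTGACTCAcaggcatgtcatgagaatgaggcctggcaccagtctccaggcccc
S100A10 (GRCh38.p14, chr1:151993860-151994109, minus strand): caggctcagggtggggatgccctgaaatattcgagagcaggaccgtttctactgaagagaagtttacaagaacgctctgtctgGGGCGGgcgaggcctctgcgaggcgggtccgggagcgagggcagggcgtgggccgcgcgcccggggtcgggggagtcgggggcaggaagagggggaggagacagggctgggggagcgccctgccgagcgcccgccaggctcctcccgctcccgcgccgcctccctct
S100A6 (GRCh38.p14, chr1:153535992-153536241, minus strand): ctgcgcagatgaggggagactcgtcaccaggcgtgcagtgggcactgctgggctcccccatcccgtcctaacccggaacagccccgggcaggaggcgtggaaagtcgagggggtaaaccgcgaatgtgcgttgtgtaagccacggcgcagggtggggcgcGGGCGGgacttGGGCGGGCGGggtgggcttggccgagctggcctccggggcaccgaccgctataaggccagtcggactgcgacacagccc
S100A4 (GRCh38.p14, chr1:153545807-153546056, minus strand): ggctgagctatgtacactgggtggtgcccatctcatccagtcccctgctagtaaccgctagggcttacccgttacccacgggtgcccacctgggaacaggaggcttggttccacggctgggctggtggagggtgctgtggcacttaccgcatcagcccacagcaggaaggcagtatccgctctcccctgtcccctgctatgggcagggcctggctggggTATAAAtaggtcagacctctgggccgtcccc
TATAAA lay at position -29 of S100A9 and of S100A8, at -31 of S100A4 and at -28 of S100P, so that 4 of 10 members held it, against 10.7% of 35116 RefSeq promoters of the same length. The members with TATAAA thus included S100A9 as well as S100A4. TGANTCA was found in S100A2 alone among the members, at position -52, and in 6.57% of all promoters. GGGCGG was found in S100A6, S100A9, S100A10 and S100A11, and in 42.6% of all promoters. CCAAT was searched as well and was found in 0 of 10 members and 32% of all promoters. The upstream stretch of S100A10 was 71.2% G and C and that of S100A6 70%, while S100A8 had 53.2% and the median promoter 58%. The start used for S100A2 lay 2046 bases, that for S100A4 4330 bases and that for S100A6 253 bases from the start of the gene in the deposited table, and those of S100A8, S100A9 and S100A10 matched it. For S100A11, whose sequence is not shown, the start used lay 10903 bases from the deposited one.

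Levels of different genes were compared per length, in the deposited FPKM (counts divided by gene length and by the total of the library). With shNC, S100A11 was the most abundant member at 546 ± 16.4 FPKM (SD, n = 3), followed by S100A6 at 370.2 ± 35.1, S100A4 at 259 ± 23.5 and S100A16 at 218 ± 8.53. S100A10 and S100P came next at 200.1 ± 7.32 and 187 ± 14.6 FPKM, and their libraries overlapped. S100A2 and S100A14 were far lower at 7.32 ± 1.20 and 6.87 ± 0.25 FPKM and overlapped each other. S100A9 stood at 1.87 ± 1.34 FPKM and S100A8 at 0.165 ± 0.096 FPKM. The members therefore formed an abundant set of 6 genes and a scarce set of 4 genes. The order within the abundant set rests on the deposited gene lengths, such as 649 bp for S100A11 and 1701 bp for S100A16. In CPM with shNC, S100A16 stood at 366, S100A6 at 355 and S100A11 at 350.

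With shNUF2 the order changed at S100A10, which stood below S100A16 with shNC and above S100A6 with shNUF2, at 439 ± 12.6 FPKM. S100A11 remained the highest at 714 ± 17.6 FPKM, and S100A6 stood at 371 ± 10.7 FPKM. S100P, S100A4 and S100A16 followed at 244, 241 and 235 FPKM, where each overlapped its neighbour. S100A2 had 17.9 ± 1.33 FPKM. S100A14 and S100A9 overlapped at 9.35 ± 1.51 and 7.36 ± 1.62 FPKM, and S100A8 was still the lowest at 0.633 ± 0.176 FPKM.

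**Figure D1:**
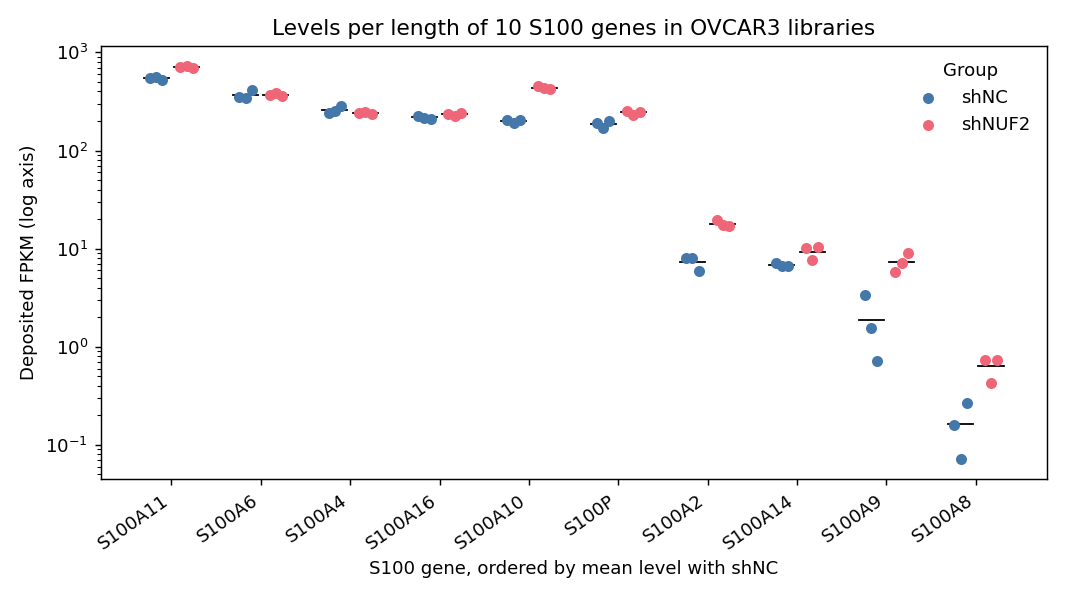
Deposited FPKM of the 10 S100 genes (log axis) in each of the 3 shNC and 3 shNUF2 libraries, with genes ordered by their mean with shNC and a bar at each group mean. S100A10, S100A2 and S100A9 show the widest gaps among the tested genes, from means of 200.1, 7.32 and 1.87 FPKM with shNC to 439, 17.9 and 7.36 FPKM with shNUF2, while the libraries of S100A4 and S100A6 overlap.

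Summed over the 10 members, the level was 1754 to 1854 FPKM with shNC and 2248 to 2298 FPKM with shNUF2, and the groups did not overlap. S100A10 accounted for 49.4% of the difference between the group means, S100A11 for 34.9% and S100P for 11.9%. S100A2, S100A9 and S100A8, in spite of their large ratios, made up 2.18%, 1.14% and 0.097% of it. The members took 0.160% to 0.169% of all counts with shNC and 0.203% to 0.207% with shNUF2.

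S100A10, also called p11, is the member whose EF-hands no longer bind calcium and whose main partner is annexin A2, with which it forms a complex at the plasma membrane. The gene lies on chromosome 1 from 151982915 to 151993859 on the minus strand (GRCh38). Its level was 204, 191 and 205 CPM in the shNC libraries and 468, 446 and 437 CPM in the shNUF2 libraries. The groups were far apart and the libraries within a group lay close together. The log2 fold change was 1.17 (SE 0.04, 95% interval 1.08 to 1.26, edgeR adjusted p = 4.07e-18).

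S100A11, which binds annexin A1 and annexin A2 and is linked to membrane repair, lies 38646 bases from S100A10 (chromosome 1, 152032506 to 152047907, minus strand). It rose less, from 353, 358 and 339 CPM to 470.2, 479 and 461 CPM, with no overlap between the groups. Its log2 fold change was 0.43 (SE 0.04, edgeR adjusted p = 9.01e-10), under the limit of 1. The ratio of S100A10 to S100A11 within a library, in FPKM, was 0.371, 0.342 and 0.389 with shNC and 0.638, 0.598 and 0.609 with shNUF2, so that the 2 neighbours did not change by the same factor. GENCODE release 29 lists 2 pseudogenes named after S100A11 and none named after another member. Copies under other names were not searched. Reads that match both S100A11 and a pseudogene could have been dropped or split by the counting.

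S100A9 and S100A8 form the heterodimer calprotectin, which neutrophils, monocytes and stressed keratinocytes make in large amounts, and which binds TLR4 and AGER outside the cell. S100A9 (chromosome 1, 153357854 to 153361023, plus strand) had 27, 14 and 7 counts with shNC and 46, 54 and 79 with shNUF2. In CPM these were 1.90, 0.876 and 0.407 against 3.41, 4.15 and 5.25, so that the groups did not overlap, although the shNC libraries differed among themselves more than those of any other member tested in relation to their mean. The log2 fold change was 2.06 (SE 0.35, 95% interval 1.34 to 2.78, edgeR adjusted p = 1.03e-05), the widest interval among the 9 members. Without shNC replicate 1, the highest control, it was 2.74.

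S100A8 (chromosome 1, 153390032 to 153391073, minus strand) had 2, 1 and 4 counts with shNC and 9, 5 and 10 with shNUF2. The groups did not overlap. Summed over the libraries, 7 counts stood against 24, a ratio of 3.92 after scaling for library size, with a 95% interval of 1.64 to 10.8 that covers counting error only. The 2 subunits were therefore both scarce, and both had more counts in every shNUF2 library than in any shNC library. The ratio of S100A9 to S100A8 in FPKM ranged from 2.72 to 21.8 with shNC and from 7.95 to 16.8 with shNUF2, and the ranges of the groups overlapped.

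Because leukocytes and squamous epithelium are the usual sources of calprotectin, their markers were read in the same libraries. The summed level of the 10 leukocyte genes was 2.11 to 3.82 CPM with shNC and 5.49 to 9.54 CPM with shNUF2. Of these 10, 2 were abundant enough to test, among them ITGAM, an integrin of myeloid cells, with a log2 fold change of 0.74 (SE 0.49, edgeR adjusted p = 0.185). MPO had 0 counts in all 6 libraries and CD3E had 1 count in 1 library, whereas PTPRC had 0, 1 and 0 counts with shNC and 6, 11 and 6 with shNUF2, and CD14 had 0, 3 and 1 against 10, 6 and 11. Of the 9 squamous genes, 4 were tested, among them the basal keratin KRT14 and the transcription factor TP63, which met the filter on low counts only through their shNUF2 libraries, so that a count of this list has no weight. KRT14 had 2, 0 and 0 counts with shNC and 12, 12 and 20 with shNUF2. The stress keratin KRT16 rose from 71, 73 and 81 counts to 208, 250 and 234. KRT1 had 0 counts in all libraries, KRT5 had at most 5 and DSG3 at most 3, and the summed level of the list, to which KRT10 gave the largest share in each library, was 24.8 to 47.7 CPM with shNC and 39.0 to 52.3 CPM with shNUF2. The part of other cell types in the S100A8 and S100A9 values was not tested.

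S100A2, a nuclear and cytoplasmic member found mainly in the basal layer of squamous and glandular epithelia, lies on chromosome 1 from 153561108 to 153567890 on the minus strand. It had 176, 193 and 156 counts with shNC and 413, 350 and 397 with shNUF2. In CPM the libraries were 12.4, 12.1 and 9.07 against 30.6, 26.9 and 26.4, a gap wider than either group's own range. This is a log2 fold change of 1.33 (SE 0.12, 95% interval 1.09 to 1.57, edgeR adjusted p = 1.09e-10). TP63, the squamous transcription factor known to act on S100A2, had 15, 13 and 6 counts with shNC and 30, 27 and 32 with shNUF2 (log2 fold change 1.56, SE 0.38). TP63 met the filter on low counts only through its shNUF2 libraries. Its part in the S100A2 values was not tested.

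S100A4 and S100A6, which lie near S100A2 in the cluster, gave the smallest values. S100A4, called metastasin for its link to tumour spread, binds the heavy chain of non-muscle myosin and lies on chromosome 1 from 153543613 to 153550136 on the minus strand, 10971 bases from S100A2. Its level was 227, 233 and 267 CPM with shNC and 235, 233 and 225 CPM with shNUF2, and the groups overlapped. The log2 fold change was -0.07 with a 95% interval of -0.17 to 0.04 (edgeR adjusted p = 0.241). The interval leaves room for a small decrease, and without shNC replicate 1 the value was -0.12 (edgeR adjusted p = 0.0404, range over the alternatives 0.0404 to 0.968). S100A3 overlaps S100A4 on the same strand, so that reads in the shared part are uncertain for both.

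S100A6, or calcyclin, binds the calcyclin-binding protein CACYBP and annexins (chromosome 1, 153534599 to 153536244, minus strand). It stood at 341, 331 and 394 CPM with shNC and 367, 373 and 355 CPM with shNUF2, where shNC replicate 3 was the highest of all 6 libraries. The log2 fold change was 0.04 with a 95% interval of -0.07 to 0.15 (edgeR adjusted p = 0.498). Without shNC replicate 3 it was 0.12 (edgeR adjusted p = 0.0344, range over the alternatives 0.0344 to 0.952), so that the call of S100A6 rests on that library. The same library was also the highest for S100A4 and the lowest for S100A2 and S100A9. Within each library the ratio of S100A2 to S100A6 in FPKM was 0.0228, 0.0229 and 0.0145 with shNC and 0.0524, 0.0453 and 0.0467 with shNUF2. The ratio of S100A4 to S100A6 varied less from library to library than either gene, at 0.684, 0.722 and 0.697 with shNC and 0.658, 0.642 and 0.649 with shNUF2, and here the groups did not overlap.

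S100P, named for its discovery in placenta, activates ezrin and binds AGER, and is the member outside the cluster (chromosome 4, 6693878 to 6697170, plus strand). It rose from 88.8, 79.3 and 93.1 CPM to 123, 110.2 and 117 CPM, with a log2 fold change of 0.42 (SE 0.06, edgeR adjusted p = 3.30e-07). This is close to the value of S100A11, and the ratio of S100P to S100A11 in FPKM was 0.343 ± 0.037 with shNC and 0.343 ± 0.023 with shNUF2 (SD, n = 3, exact permutation test, two-sided, p = 1).

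S100A14 and S100A16 are epithelial members that lie 1109 bases apart. S100A14 (chromosome 1, 153614255 to 153616986, minus strand) had 9.07, 8.45 and 8.49 CPM with shNC and 13.2, 9.77 and 13.4 CPM with shNUF2. shNUF2 replicate 2 was only slightly above the highest control. Its log2 fold change was 0.49 (SE 0.14, edgeR adjusted p = 3.62e-03). S100A16 (chromosome 1, 153606886 to 153613145, minus strand) had 383, 363 and 352 CPM with shNC and 409, 389 and 416 CPM with shNUF2. The groups were separate by a narrow margin, and the log2 fold change of 0.15 (SE 0.04, edgeR adjusted p = 4.53e-03) was the smallest among the 7 members that passed the adjusted test.

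Counting the libraries alone, 8 of the 10 members were higher in every shNUF2 library than in every shNC library, S100A8 included, and 2 overlapped. Of the 9 members tested this was 7, and of the 8 that met the filter on low counts in both groups it was 6. Among all genes tested 35.2% were separate and higher and 35.4% separate and lower. An exact permutation test of a single member cannot go below p = 0.1 with 3 libraries against 3. Across 7 ratios between pairs of genes tested in this way, 5 reached that smallest p, which was 0.14 after Benjamini-Hochberg adjustment over the 7.

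**Figure D2:**
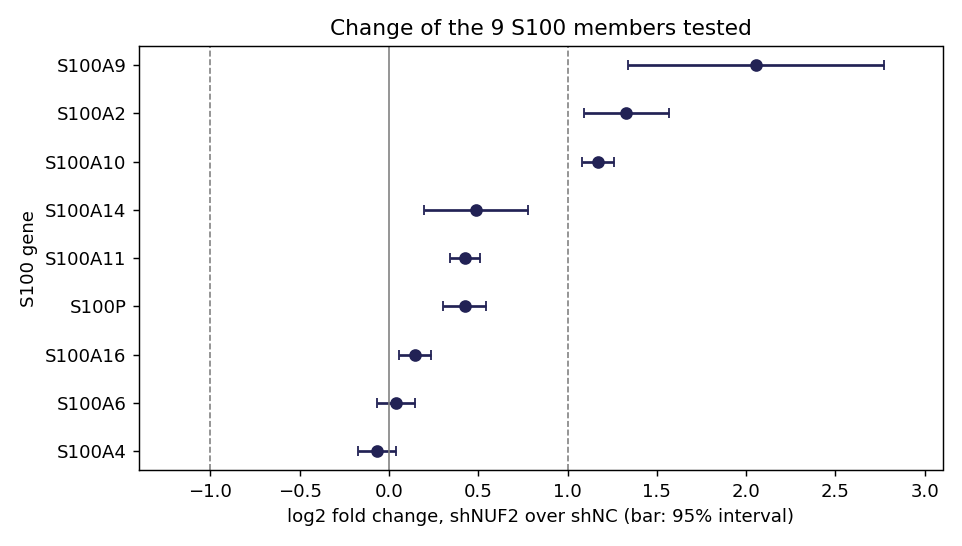
Log2 fold change of shNUF2 over shNC for the 9 members tested, with 95% intervals as bars and the limit of 1 in either direction as dashed lines. S100A9, S100A2 and S100A10 lie beyond 1 at 2.06, 1.33 and 1.17, S100A16, S100P, S100A11 and S100A14 lie between 0.15 and 0.49, and the intervals of S100A6 and S100A4 contain 0.

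Of the 11 other S100 genes listed, S100A3 and S100A13 could be tested. S100A13, a member involved in the release of proteins that lack a signal peptide, had 39, 55 and 44 counts with shNC and 81, 60 and 67 with shNUF2, and its log2 fold change was 0.78 (SE 0.23, edgeR adjusted p = 3.37e-03). S100A13 overlaps S100A1 on the opposite strand. S100A3 had 126, 156 and 115 counts with shNC and 117, 142 and 157 with shNUF2, with a log2 fold change of 0.25 (edgeR adjusted p = 0.153). S100A1 and S100A5 had at most 10 counts in a library. S100A7, S100A12, S100B, S100G and S100Z had at most 2, and S100A7A and S100A7L2 had 0 in all libraries. Psoriasin (S100A7) and the neutrophil protein S100A12, which are often found together with calprotectin, were thus near 0.

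Along the cluster, the changes of neighbouring members were unequal. The outermost S100 genes of the cluster span 1.65 Mb of chromosome 1, from 151982915 to 153632039, with 17 S100 genes and 47 other genes in the table, most of which build the cornified envelope of skin. Of the 47 other genes, 28 had 0 counts in all libraries and 38 had at most 3 in any. CRCT1, LCE3E and LCE3D, which lie side by side between S100A11 and S100A9, had 0 counts in all 3 shNC libraries. LCE3E had 34, 29 and 22 counts with shNUF2 and was at least 10.8-fold higher than a floor of 3 counts per shNC library, CRCT1 had 27, 15 and 19 counts (at least 7.71-fold higher), and LCE3D had 26, 19 and 12 counts (at least 7.31-fold higher). TCHH, the hair follicle protein trichohyalin and itself an EF-hand protein of the fused S100 type, had 5, 3 and 5 counts with shNC and 24, 9 and 13 with shNUF2. These genes could be tested only through their counts with shNUF2, so that their number has no weight as a count. IVL, which encodes involucrin, had at most 5 counts in a library, and the genes of the LCE1 group had 0.

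**Figure D3:**
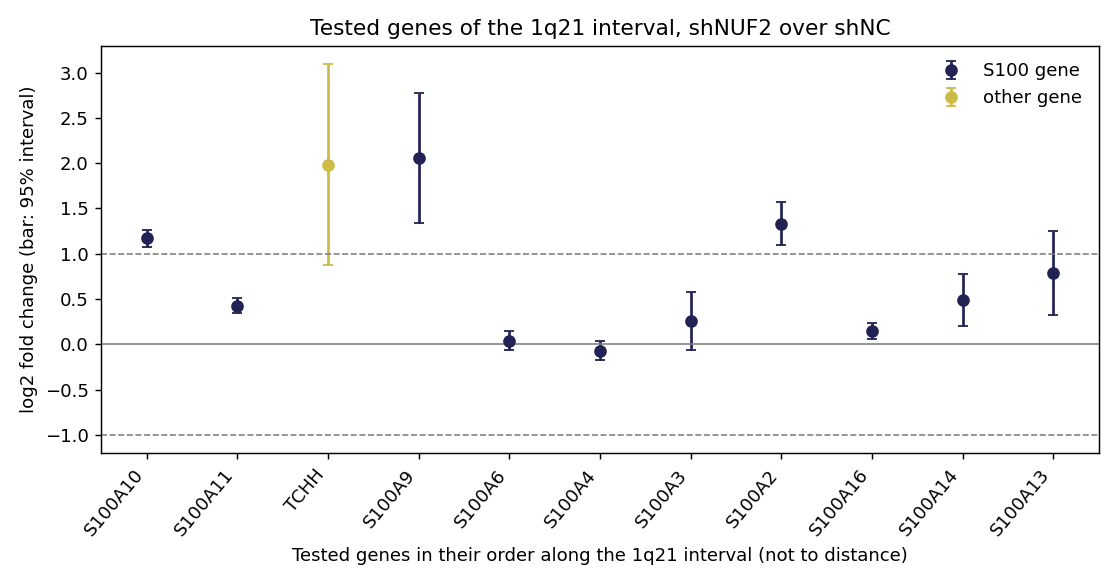
Log2 fold change of shNUF2 over shNC, with 95% intervals, for the tested genes of the chromosome 1q21 interval in their order along the chromosome, S100 genes in dark blue and TCHH in yellow. CRCT1, LCE3E and LCE3D are left out because they had 0 counts with shNC, and S100A4 and S100A6, at -0.07 and 0.04, lie between S100A9 and S100A2, at 2.06 and 1.33.

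The annexins are the calcium- and lipid-binding partners of several S100 proteins. Of 12 tested, 3 were higher (25%) and 1 lower (8.33%) by the fold change rule, against 9.41% and 4.16% of all genes. By adjusted p 7 were higher and 4 lower (33.9% and 33.8% of all genes), and their median log2 fold change was 0.31. ANXA2, the partner of S100A10, had 644 CPM with shNC and 1234 CPM with shNUF2 and a log2 fold change of 0.94 (SE 0.04). The ratio of S100A10 to ANXA2 in FPKM was 3.70, 3.38 and 3.58 with shNC and 4.23, 4.15 and 4.14 with shNUF2, so that both genes rose and S100A10 rose slightly more. The level of this ratio rests on the deposited gene lengths, 1012 bp for S100A10 and 11574 bp for ANXA2. In CPM with shNC, S100A10 was the lower of the pair, at 200 against 644. ANXA1, the partner of S100A11, rose by a log2 fold change of 1.33 (SE 0.04), from 219.6 to 553 CPM. ANXA11, which binds S100A6, rose by 0.29 on the log2 scale. ANXA6 and ANXA10 also passed the limit at 1.54 and 1.01, and ANXA9 fell by 1.55 on the log2 scale.

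Of 19 tested receptors and other partners, 5 were higher (26.3%) and 0 lower by the fold change rule, against 9.41% and 4.16% of all genes. By adjusted p 10 were higher and 3 lower (33.9% and 33.8% of all genes), and the median log2 fold change was 0.38. MYH9, the non-muscle myosin heavy chain bound by S100A4, rose from 604 to 1508 CPM (log2 fold change 1.32, SE 0.04), whereas S100A4 itself passed neither rule. EZR, the ezrin activated by S100P, rose by 1.24 on the log2 scale. Also past the limit were PLAUR (1.23) and PLAT (1.78) of the plasminogen system, in which S100A10 acts as a binding site at the cell surface. PLAT met the filter on low counts only through its shNUF2 libraries. AHNAK, a giant scaffold protein of the S100A10 and annexin A2 complex, rose by 0.45 and CACYBP by 0.22.

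The receptors AGER, TLR4 and BSG passed neither rule. AGER had 4.40 CPM with shNC and 5.71 CPM with shNUF2 (log2 fold change 0.38, edgeR adjusted p = 0.114), and TLR4 had 4.04 and 5.57 CPM (0.46, edgeR adjusted p = 0.0537). BSG, an abundant receptor for S100A9, had 1657 and 1613 CPM (-0.04, edgeR adjusted p = 0.434). S100PBP, a nuclear protein that binds S100P, was lower in all 3 shNUF2 libraries, with 1093, 1278 and 1353 counts against 517, 541 and 594 and a log2 fold change of -0.98 (SE 0.06). HLTF, a chromatin factor that binds the S100A10 and annexin A2 complex, fell by 0.64 on the log2 scale.

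**Figure D4:**
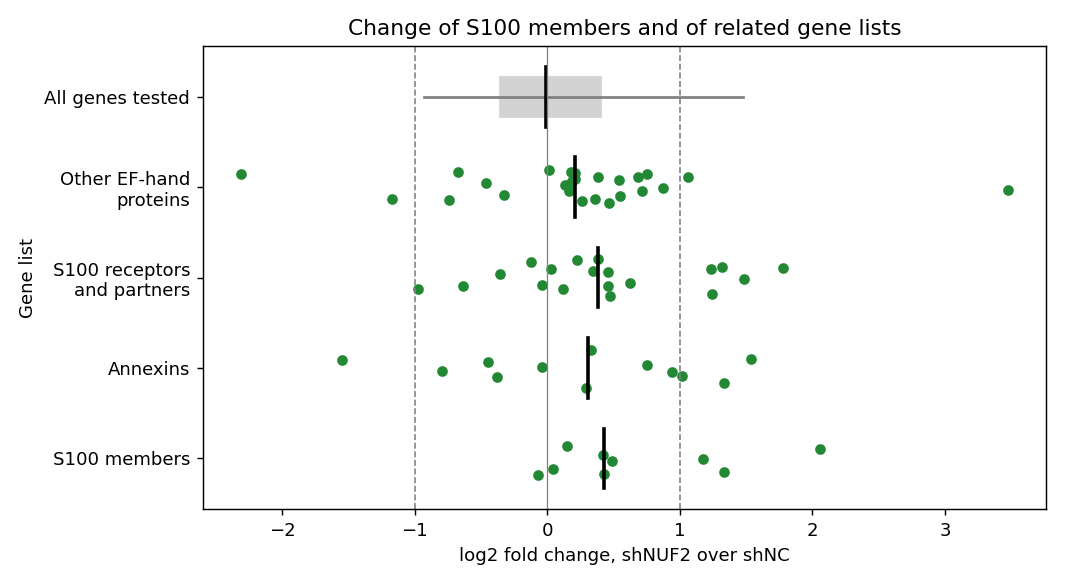
Log2 fold change of shNUF2 over shNC for the tested S100 members, annexins, S100 receptors and partners, and other EF-hand proteins, 1 point per gene with the list median as a thick bar, beside all 12874 genes tested (box from the lower to the upper quartile, line from the 5th to the 95th percentile). The list medians are 0.43, 0.31, 0.38 and 0.21, and the quartiles of all genes are -0.36 and 0.41.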

How the data were processed

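RNA-seq libraries of OVCAR3 cells with shNC or shNUF2 (3 each, grouped by their labels) were analysed from the deposited table. The submitters' processing notes name cutadapt, HISAT, HTSeq and build GRCh38.p13. Their versions and the annotation release are not given in the sources used here. The authors deposited read counts per gene without normalization, and FPKM values, which divide the count by gene length and library total. Columns that name functional annotations were not used.

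Counts were tested with edgeR 4.0.16 in R 4.3.3, with TMM scaling, filterByExpr and the quasi-likelihood test over 12874 genes, in 1 fit of all 6 libraries without covariates. CPM are scaled to 1000000 counts, ± is the SD, and p-values were adjusted by the Benjamini-Hochberg method over all genes tested. Single values were compared by exact permutation tests. Replicates of a group differed by more than sampling noise (chi-square per degree of freedom 2.64 to 4.31). Alternatives used DESeq2 1.42.0, limma 3.58.1 on log2 FPKM with pseudocounts of 1 and 0.1, other scalings and filters, a replicate block, and each library left out.

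The members and gene lists were chosen with earlier results of these data known. Named genes are NUF2, all S100 genes, ANXA1, ANXA2, ANXA11, AHNAK, CACYBP, MYH9, EZR, AGER, TLR4, BSG, and up to 4 genes per direction with the largest changes in each list of annexins, partners, EF-hand proteins and genes between the 1q21 S100 genes. HLTF, S100PBP, IVL and the marker genes of other cell types were named after their values were seen. A few genes on the lists are not reported here. Upstream sequences are from RefSeq on GRCh38.p14, found for 10 of 10 members, at the start nearest the deposited one. Intervals of summed counts cover counting error only.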

Additional observations from a re-analysis of the deposited data

How the results depend on the processing

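The calls of S100A9, S100A2 and S100A10 by fold change, and of S100A11, S100A14, S100A16 and S100P by adjusted p, held in each of the alternatives that tested them, which were other scalings, DESeq2's Wald test, other filters, limma on log2 FPKM, the replicate block and each library left out. S100A9 did not reach 1 CPM in every library and was untested under that stricter filter. Log2 fold changes ranged from 1.63 to 2.74 for S100A9, 1.19 to 1.40 for S100A2 and 1.13 to 1.19 for S100A10. S100A4 ranged from -0.12 to 0.00 and S100A6 from -0.01 to 0.12, so that the sign of both turned with the library left out. With a library left out, 0 to 1 members were lower by adjusted p, the 1 being S100A4 without shNC replicate 1. Over all genes, the number higher fell from 1212 to 756 with the stricter filter and to 430 with limma on log2 FPKM + 1, and the number lower fell from 536 to 206 with the latter. The added pseudocount lowers the fold change of scarce genes. Without a filter on low counts S100A8 could be tested and had a log2 fold change of 1.88 (SE 0.84, edgeR adjusted p = 0.0468), which rests on 7 counts with shNC and 24 with shNUF2.

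The correlations of same-numbered libraries across the groups were 0.03, 0.014 and -0.043, so no deviation shared by same-numbered libraries was seen. Libraries with different numbers were not compared in this way. Whether the libraries were prepared in pairs cannot be told from these values. A fit with the replicate block called 1207 genes higher (1205 shared with the fit without it) and 536 lower (532 shared), and no member's call changed.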

Other observations

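Of 26 tested EF-hand calcium-binding proteins outside the S100 family, 2 were higher (7.69%) and 2 lower (7.69%) by the fold change rule, against 9.41% and 4.16% of all genes. By adjusted p 16 were higher and 6 lower (33.9% and 33.8% of all genes), and the median log2 fold change was 0.21. CALB1, the calcium buffer calbindin, rose by 3.48 on the log2 scale (SE 0.49) from 0.185 to 2.20 CPM, and RCN3, a calcium-binding protein of the endoplasmic reticulum, rose by 1.06 (SE 0.05). RCN1, a reticulocalbin like RCN3, fell by 1.17 (SE 0.07), and CALML6, a relative of calmodulin, fell by 2.31 (SE 0.36) from 3.01 to 0.605 CPM. CALB1 met the filter on low counts only through its shNUF2 libraries and CALML6 only through its shNC libraries.

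Of 8 fibroblast markers, 3 were tested. The summed level of the list was 84.0 to 90.6 CPM with shNC and 69.0 to 76.5 CPM with shNUF2, most of it COL1A1, and PDGFRA had 0 counts in all libraries. DCN, which encodes the matrix proteoglycan decorin, rose from 65, 40 and 67 counts to 130, 104 and 117.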
